A study of Solenopsis invicta with 3 samples.

Results

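Of 19703 genes measured in worker antennae of the fire ant Solenopsis invicta, 29 were graded down from SB/Sb workers over SB/SB workers of the same colonies to SB/SB workers of monogyne colonies. The genes were chosen by their counts in these libraries. A gene was taken when its normalized count (defined below) was at least 1.35 times higher in P_Bb than in P_BB and again at least 1.35 times higher in P_BB than in M_BB, after 0.5 was added to each. Its mean normalized count over the libraries had to be at least 20 and under 1500, which left a window of 6468 genes. Odorant receptor genes and 5 genes that the study lists as transposable elements were left out of the search. The counts therefore chose the genes, and their levels and ratios are given as a description with no test.

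The data were 3 libraries, each made from the pooled antennal RNA of 1 worker class. P_Bb workers came from polygyne colonies (several queens) and were of the SB/Sb genotype at the social supergene. P_BB workers came from the same polygyne colonies and were SB/SB, and M_BB workers were SB/SB and came from monogyne colonies (a single queen). The labels name 4 colonies for each pool, the P_Bb and P_BB pools share all 4, and M_BB shares 0 of them, so in the second step colony and social form cannot be told apart. The design text states that 3 of 4 bioreplicates were mixed, which the labels' 4 colonies do not match. The workers were caught where the colonies forage and genotyped singly, and neither age nor a treatment is given. The study reports that its colonies were kept in the laboratory before sampling and that only medium-sized foragers were taken. With 1 library per class there were no replicates, and each difference is a difference between libraries.

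The social supergene of the fire ant is a large chromosome region in which the SB and Sb variants do not exchange genes by recombination. Monogyne colonies hold only SB, whereas polygyne colonies hold workers of both genotypes. Colony members recognise each other and their queens largely by smell, and the antenna is the organ that carries the olfactory neurons. The libraries thus hold a step in genotype within shared colonies (P_Bb to P_BB). They also hold a step in social form and colony together, within a shared genotype (P_BB to M_BB). The 29 genes were lower at both, and each step is also a difference between single libraries.

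The summed expected counts were between 1310209 in P_Bb and 1800106 in P_BB, and 13011 to 13507 genes had a count above 0. Expected counts, the number of reads that the estimator assigns to a gene, were divided by a size factor of 0.841 for P_Bb, 1.12 for P_BB and 1.07 for M_BB to give normalized counts. Odorant receptor genes, which mark the olfactory neurons of the antenna, were above 0 for 431 to 439 of 473 IDs. Their summed normalized count was 5910 in P_Bb, against 5741 in P_BB and 5451 in M_BB. As a share of all expected counts, M_BB was highest with 0.400%, P_Bb had 0.379% and P_BB was lowest with 0.356%. The order of the libraries for these genes therefore depended on the scaling. In bulk tissue, fewer cells of a type and less RNA per cell cannot be told apart.

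Summed over the 29 genes, the normalized count was 1822 in P_Bb, against 968 in P_BB and 571 in M_BB. The median gene had 47.6 normalized counts in P_Bb, against 29.6 in P_BB and 17.8 in M_BB. Most of these genes were weakly expressed: 15 of 29 stayed under 50 normalized counts in every library, and 4 reached 100 or more in P_Bb. Without those 4 the sum was 1163 in P_Bb, against 737 in P_BB and 459 in M_BB.

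**Figure D1:**
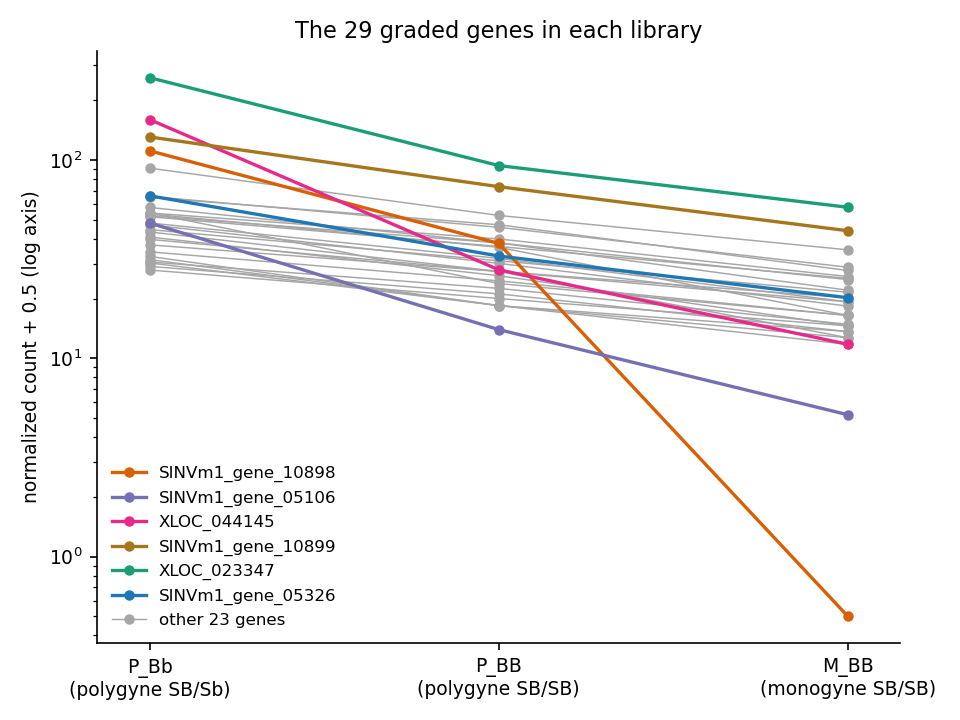
Normalized count plus 0.5 of the 29 genes (log axis) in the P_Bb, P_BB and M_BB libraries, with 1 line per gene and 6 genes in colour. XLOC_023347 was the highest gene in every library, and SINVm1_gene_10898 was listed at 0 in M_BB, drawn at 0.5.

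Of the 29 genes, 5 stood in the study's own table of genes, which was drawn up on other libraries that shared at least part of the workers with these. So did 46 of the 6468 window genes, 0 of the 27 genes graded the reverse way and 2 of the 49 in the other 4 orders. The table holds genes that the study called different among these worker classes, so nothing is read from the count. In that table only 1 of the 5 had a name other than uncharacterized protein, SINVm1_gene_10899. It is given as Mariner 29, of the mariner family of DNA transposons, which move by excision and insertion with the help of a transposase. The other 24 genes had no name in the sources used here, so for them the ID stands alone and no role can be given. No sequence or position could be matched to any of the 29, since the RefSeq genes of the UNIL_Sinv_3.0 assembly held 0 of the series' IDs.

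The Mariner 29 gene SINVm1_gene_10899 had 130 normalized counts in P_Bb, against 72.8 in P_BB and 43.4 in M_BB. It was 1.78-fold higher in P_Bb than in P_BB and 1.67-fold higher in P_BB than in M_BB, so its steps were nearly equal. The log2 ratios were 0.83 (95% counting-error interval 0.42 to 1.25) and 0.74 (0.22 to 1.26). The intervals here and below come from the Poisson error of the 2 counts alone. Transposon copies share sequence, and the deposited posterior standard deviation, which measures how uncertain the assignment of shared reads is, was between 19.8 and 20.9 reads in the 3 libraries. The posterior mean counts were 110 reads in P_Bb, 73.7 in P_BB and 44.1 in M_BB. With this uncertainty added, neither step's interval lay above 0. In the study's table, drawn up on other libraries with replicates, this gene stands as higher in monogyne workers. That is the opposite of the order here, and the cause of the difference was not tested.

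SINVm1_gene_10898 bears the ID number before that of the Mariner 29 gene and is equally short, with a coding length of 393 bases against 366. Its normalized count was 111 in P_Bb, against 37.4 in P_BB and 0 in M_BB. Its expected counts were 93.0, 41.8 and 0 reads. The 0 was an estimate and not an absence of reads that fit the gene, because the posterior mean count in M_BB was 36.6 reads with a standard deviation of 30.8. On normalized posterior means the gene had 93.95 in P_Bb, against 49.9 in P_BB and 34.3 in M_BB, which is 1.88-fold at the first step and 1.45-fold at the second. The posterior standard deviation was also large in P_Bb, 45.3 on a mean of 78.7 reads, and in P_BB, 36.9 on 55.7. With it added, the log2 interval of the first step was -0.97 to 4.07. The order of the libraries was the same on both estimates, but it is uncertain because both rest on the same shared reads. The size of the second step differed between the estimates, and no ratio to the listed 0 is given.

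The summed normalized count of SINVm1_gene_10898 and SINVm1_gene_10899 was 240.7 in P_Bb, against 110 in P_BB and 43.4 in M_BB. From posterior means the sum was 225 in P_Bb, against 116 in P_BB and 75.6 in M_BB. The M_BB sum moved most between the estimates. These were the only 2 of the 29 genes (6.90%) with a posterior standard deviation over 10% of the posterior mean in any library, a feature of 0.866% of the window genes, 0 of the 27 genes graded the reverse way and 2 of the 49 in the other 4 orders (4.08%).

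Of the 5 genes left out of the search, 3 also met the rest of the rule. XLOC_000229, listed as Gypsy 19, of a group of retrotransposons that move through an RNA copy, had 86.8 normalized counts in P_Bb, against 18.8 in P_BB and 9.38 in M_BB. XLOC_042917, listed as Copia 12, of another such group, had 35.7, 16.9 and 10.3 in the same order. SINVm1_gene_10777, listed as a harbi1-like nuclease, a protein related to the transposases of Harbinger DNA transposons, had 40.1, 28.6 and 18.7. The rest of the 5 went other ways. XLOC_003144 had 227, 297 and 372, rising toward M_BB, and SINVm1_gene_00196 had 21.4, 52.0 and 22.5, highest in P_BB. With the Mariner 29 gene, 4 genes listed as transposable elements were thus graded down in these libraries. The leaving out of 3 of them means that the 29 give no count of transposable elements. Only genes of the study's table carry such a listing here, so no share over the window can be given. That table also lists other transposable elements, whose values are not given here, and it holds genes called different among these worker classes. Nothing is therefore read from the count of 4. No odorant receptor gene met the rest of the rule (0 of 473 IDs, of which 34 to 42 had no count in a given library). The share over the window was 0.448%, so nothing is read from that 0.

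XLOC_023347, given as an uncharacterized protein of linkage group 3, was the most abundant of the 29. Its normalized count was 259 in P_Bb, against 93.2 in P_BB and 57.2 in M_BB. P_Bb was far above both SB/SB libraries, and the log2 ratio was 1.47 (1.14 to 1.81) at the first step and 0.70 (0.24 to 1.15) at the second. The first step exceeded the second by 0.77 on the log2 scale (0.09 to 1.46). It was the only 1 of the 29 in which the first step was the larger beyond counting error.

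XLOC_044145, also an uncharacterized protein, had the steepest first step of the 29. It had 159 normalized counts in P_Bb, against 27.4 in P_BB and 11.3 in M_BB. P_BB was again above M_BB, by 2.38-fold, and the log2 ratios were 2.52 (1.95 to 3.08) and 1.25 (0.30 to 2.20). From end to end the count was 13.6-fold higher in P_Bb. The steps differed by 1.27 on the log2 scale, with an interval of -0.05 to 2.58.

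SINVm1_gene_05106, an official gene with no name in the sources, had 47.6 normalized counts in P_Bb, against 13.4 in P_BB and 4.69 in M_BB. These rest on expected counts of 40, 15 and 5 reads. The log2 ratio was 1.79 (0.94 to 2.63) at the first step and 1.43 (0.02 to 2.83) at the second, and end to end the gene was 9.27-fold higher in P_Bb (log2 ratio 3.21, 1.93 to 4.50). Its reads were assigned almost without doubt, with a posterior standard deviation of at most 0.075% of the mean.

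Across the 29 genes the fold at the first step ranged from 1.35 to 5.72, with a median of 1.51. Over the 28 genes above 0 in M_BB the second step ranged from 1.35 to 2.69 with a median of 1.56, and the end-to-end fold ranged from 1.91 to 13.6 with a median of 2.44. Of all window genes, 7.81% were at least 1.35-fold higher in P_Bb than in P_BB, and 14.1% were at least 1.35-fold higher in P_BB than in M_BB. The first step was the larger in 12 of the 29 and the second in 17, and in 8 the steps were within 0.1 of each other on the log2 scale. At least 2-fold at both steps were 3 genes, SINVm1_gene_10898, SINVm1_gene_05106 and XLOC_044145, which were 0.0464% of the window. The first of them is counted only through its listed 0, since its posterior means gave 1.88-fold and 1.45-fold steps. P_Bb was at least 2-fold above M_BB in 27 of the 29 (1.62% of the window, with 1.22% at least 2-fold below) and at least 4-fold in 4 (0.0928%), among them SINVm1_gene_10898 by its listed 0, and since the rule used these ratios, nothing is read from those counts.

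**Figure D2:**
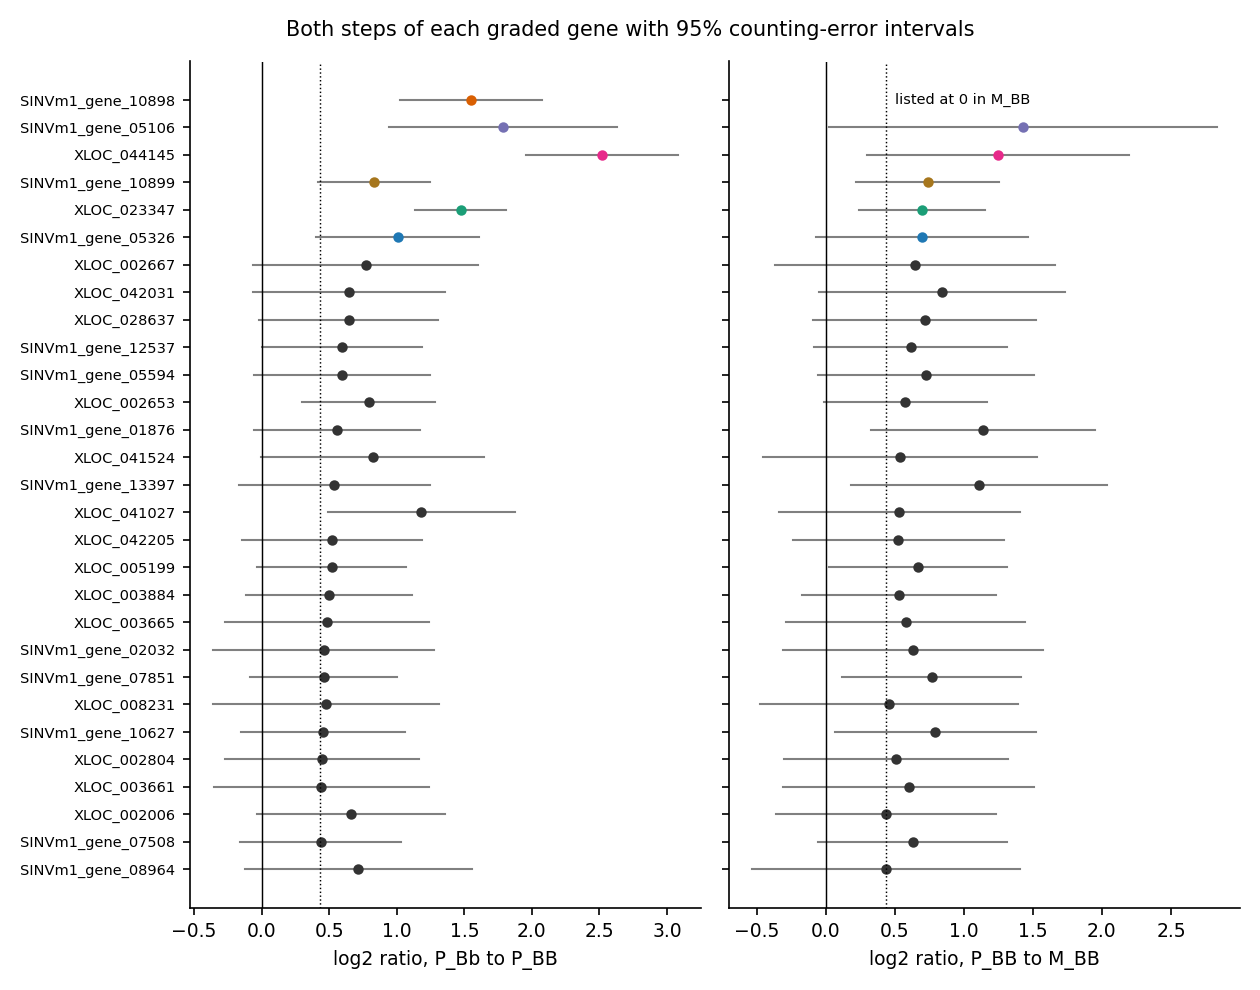
Log2 ratio of each of the 29 genes from P_Bb to P_BB (left) and from P_BB to M_BB (right), ordered by the smaller step. Points are ratios with a pseudocount of 0.5, bars are 95% counting-error intervals, the solid line marks 0 and the dotted line the 1.35-fold step, and most bars reach below 0 in at least 1 panel.

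Counting error alone left most single steps undecided. The interval lay above 0 at both steps in 5 of the 29 genes (0.526% of the window), at the first step in 8 (5.4%) and at the second in 10 (15.8%). In 16 of the 29 neither interval lay above 0. The 5 genes were SINVm1_gene_10898, whose second interval rests on the listed 0, SINVm1_gene_05106, XLOC_044145, SINVm1_gene_10899 and XLOC_023347. With the posterior standard deviation added, an alternative chosen after seeing the data, the 2 genes with shared reads dropped out and 3 were left (0.448% of the window). The end-to-end interval from P_Bb to M_BB lay above 0 in 29 of 29 (15.2% of the window), and since the rule used this ratio, nothing is read from that count.

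In 3 genes only the first interval lay above 0. SINVm1_gene_05326 lies in the supergene on linkage group 16, and the study's sources differ over its product, which its gene table leaves uncharacterized. It had 65.4 normalized counts in P_Bb, against 32.3 in P_BB and 19.7 in M_BB. The first step was 1.01 on the log2 scale (0.41 to 1.61) and the second 0.70 (-0.07 to 1.47). It was the only supergene gene among the 29 that the sources mark as one, while the linkage group of 27 was not given. XLOC_041027, an uncharacterized protein, had 53.5 in P_Bb, against 23.3 in P_BB and 15.9 in M_BB, with log2 ratios of 1.18 (0.49 to 1.87) and 0.53 (-0.34 to 1.40). XLOC_002653, with no name, had 90.4, 52.0 and 34.7 in that order, with log2 ratios of 0.79 (0.30 to 1.28) and 0.58 (-0.01 to 1.17). In each of the 3 the difference between the steps was within counting error, the largest being 0.65 on the log2 scale (-0.71 to 2.00) for XLOC_041027.

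In 5 genes only the second interval lay above 0, and they are named after their values were seen. SINVm1_gene_01876 had 52.9 normalized counts in P_Bb, against 35.7 in P_BB and 15.9 in M_BB, a second step of 1.14 on the log2 scale (0.33 to 1.95). SINVm1_gene_13397 had 39.3, 26.9 and 12.2, a second step of 1.11 (0.19 to 2.03). In both, the polygyne libraries were nearer to each other than either was to M_BB. XLOC_005199, SINVm1_gene_07851 and SINVm1_gene_10627 had second steps of 0.67, 0.77 and 0.79 on the log2 scale. For all 5 the difference between the steps was within counting error, the largest being -0.58 (-1.77 to 0.61) for SINVm1_gene_01876.

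A further 5 genes, named for their smaller step, had intervals that reached below 0 at both steps. XLOC_002667 had 30.9 normalized counts in P_Bb, against 17.9 in P_BB and 11.3 in M_BB. XLOC_042031 had 40.3, 25.6 and 14.1, and XLOC_028637 had 46.5, 29.6 and 17.8. SINVm1_gene_12537 had 57.1, 37.6 and 24.4, and SINVm1_gene_05594 had 47.6, 31.4 and 18.8. In each of the 5 the libraries kept the same order, with folds between 1.51 and 1.79 at every step.

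The 13 genes outside the naming rule had 27.4 to 65.0 normalized counts in P_Bb, 17.9 to 46.6 in P_BB and 12.2 to 28.3 in M_BB. Their end-to-end fold was 1.91 to 3.25, with a median of 2.13. The threshold itself was not a gap in the data. Just inside it, XLOC_002006 had 42.8, 26.9 and 19.7 in P_Bb, P_BB and M_BB, SINVm1_gene_07508 had 53.5, 39.4 and 25.3, and SINVm1_gene_08964 had 29.7, 17.9 and 13.1. Just outside it, XLOC_042170 had 44.0, 30.5 and 22.5, SINVm1_gene_05188 had 63.1, 45.7 and 33.8, and XLOC_036701 had 68.9, 43.9 and 32.6. The smaller step was under 1.5-fold in 18 of the 29.

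To set the 29 genes beside other orders of the libraries, the same step was applied to all 6 orders. The order P_Bb, P_BB, M_BB held 29 genes (0.448% of the window), and the reverse order held 27 (0.417%). P_BB stood in the middle of both. In each of the 6 orders the 2 steps share the middle library, and its error enters them with opposite signs. With M_BB in the middle there were 6 genes from P_Bb down to P_BB (0.0928%) and 11 from P_BB down to P_Bb (0.17%). With P_Bb in the middle there were 12 from P_BB down to M_BB (0.186%) and 20 from M_BB down to P_BB (0.309%). The genes graded the reverse way were led by SINVm1_gene_00990, with 7.14 normalized counts in P_Bb, against 13.4 in P_BB and 53.0 in M_BB, followed by SINVm1_gene_09631 (13.1, 20.6 and 36.6) and SINVm1_gene_12550 (13.1, 20.6 and 35.6).

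**Figure D3:**
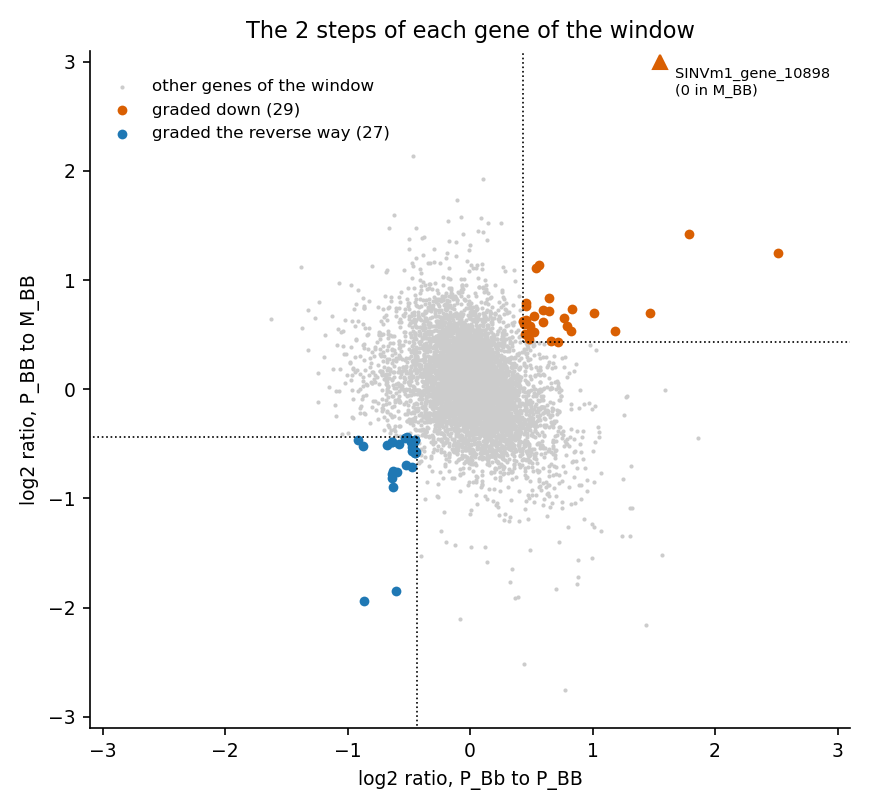
Log2 ratio from P_Bb to P_BB (x axis) against that from P_BB to M_BB (y axis) for the 6468 genes of the window, with 1 point per gene and dotted lines at the 1.35-fold steps. The 29 graded genes fill the upper right corner and the 27 reverse genes the lower left, and the triangle is SINVm1_gene_10898, whose second step lies off the scale.

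Which of the 2 gradients held more genes depended on how the libraries were scaled. It also depended on the minimum mean, since 10 gave 64 genes graded down and 72 the reverse way, and 50 gave 4 and 6. Median-of-ratios factors gave 23 genes graded down and 37 the reverse way, and TMM factors gave 20 and 38. Total counts gave 15 and 63, and deposited TPM gave 30 and 38. The median log2 ratio of P_BB to M_BB over the window was 0.03 in the main scaling, -0.21 with total counts and -0.12 with TPM. Of the 29 genes, 11 were graded under all of these scalings: SINVm1_gene_01876, SINVm1_gene_05106, SINVm1_gene_05326, SINVm1_gene_05594, SINVm1_gene_10898, SINVm1_gene_10899, SINVm1_gene_13397, XLOC_023347, XLOC_028637, XLOC_042031 and XLOC_044145. Posterior mean counts, another estimate under the upper-quartile scaling, gave 30 graded down and 26 the reverse way, and all 11 were graded on them as well.

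**Figure D4:**
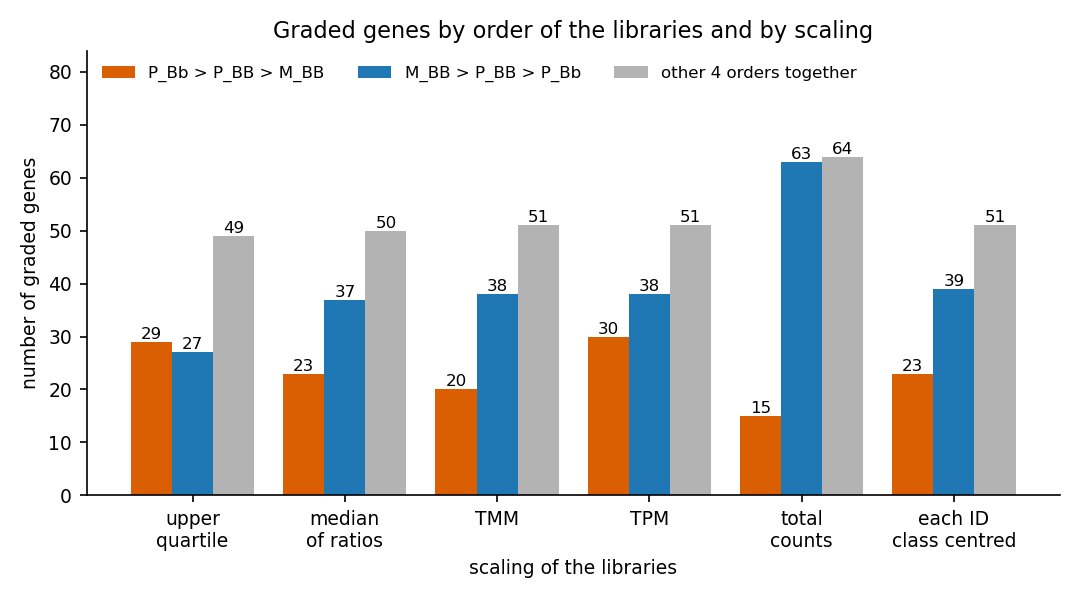
Number of genes graded from P_Bb over P_BB to M_BB, the reverse way, and in the other 4 orders together, under 6 scalings of the expected counts or TPM, with no error bars because each bar is a count from 1 set of libraries. The graded-down count is above the reverse count (29 against 27) under the upper-quartile scaling and below it under each of the other scalings drawn.

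The 29 genes differed from the window in what kind of gene model they came from, a feature the rule did not use. XLOC genes, the antennal transcript models that were added to the official gene set, made up 16 of the 29 (55.2%). They were 27.4% of the window, 25.8% of window genes with a mean count under 50, 4 of the 27 reverse genes (14.8%) and 38.8% of the genes in the other 4 orders. The gap between the gradients depended on the scaling: with total counts XLOC genes were 5 of the 15 genes graded down (33.3%) and 17 of the 63 graded the reverse way, and with TPM they were 43.3% and 31.6%. Put the other way, 0.902% of the XLOC genes of the window were graded down and 0.226% the reverse way, against 0.277% and 0.490% of the official genes.

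The excess in the main scaling went together with a shift of the whole XLOC class. Over the 1773 XLOC genes of the window the median log2 ratio of P_BB to M_BB was 0.20, against -0.03 over the 4695 official genes. At the first step the medians were -0.01 and 0.02, so the classes stood apart at the second step. The shift was alike in XLOC genes of every length, 0.24 under 1000 bases, 0.20 from 1000 to 2000 and 0.20 above, and between -0.06 and -0.01 in official genes of the same length classes.

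**Figure D5:**
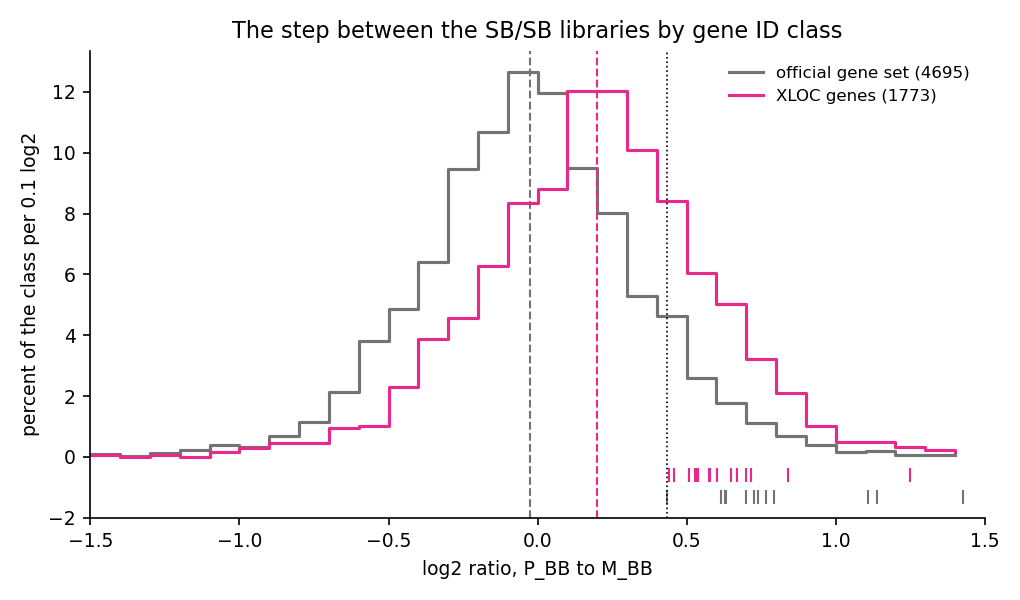
Distribution of the log2 ratio of P_BB to M_BB over the official genes and the XLOC genes of the window, as percent of the class per 0.1 log2, with dashed lines at the class medians (-0.03 and 0.20) and a dotted line at the 1.35-fold step. Ticks below 0 mark the graded genes of each class, XLOC above official, without SINVm1_gene_10898.

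When each class was centred on its own median step, an alternative added after seeing the data, 23 genes were graded down and 39 the reverse way. XLOC genes were then 6 of the 23 (26.1%) and 16 of the 39 (41.0%). XLOC genes were then not in excess among those graded down, and were in excess in the reverse gradient. Centring lowers the second step of every XLOC gene, so a change in this direction follows from the centring itself. The cause of the excess was not tested. Of the 29 genes, 18 were still graded, and 10 of the 11 that were lost were XLOC genes. XLOC_041027 and XLOC_002653 were among the lost, and the 11 genes that held under every scaling were all kept.

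The genes were also low and short. Their median mean normalized count was 31.8 against 71.7 in the window, and 25 of 29 (86.2%) had a mean under 50, as did 21 of the 27 reverse genes (77.8%) and 36.4% of the window. Of the window genes with a mean of 20 to 50, 1.06% were graded down and 0.892% the reverse way, and from a mean of 100 on the shares were 0.0399% and 0.0798%. The median length was 1257 bases, against 1782 in the reverse genes, 2028 in the window and 1469 in window genes with a mean under 50. Among XLOC genes it was 1652 bases, against 2868 in the window and 1867 at a mean under 50. In the 13 official genes, whose lengths were all multiples of 3 and so coding lengths, it was 996, against 1827 in the window and 1317 at a mean under 50. A single transcript model made up 27 of the 29 genes (93.1%), as it did 93.3% of the window.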

How the data were processed

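Antennal polyA RNA of 3 worker classes was pooled within each class, amplified with a stranded SMARTer kit and sequenced as paired reads. The authors mapped reads with Bowtie onto the official gene set extended by transcripts from antennae and by odorant receptors, and RSEM estimated the counts. Software versions for these libraries are not given in the sources used here. The deposited tables give expected counts, which are estimated counts that may hold fractions of a read. Also deposited by the authors were posterior mean counts, their posterior standard deviation and TPM. Both strands were counted alike, so antisense genes that overlap cannot be told apart. Values of the authors' own EBSeq comparison, posterior probabilities of expression patterns, were not used, nor were the transcript models, whose IDs differ.

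Expected counts were divided by the 75th percentile over 14847 genes with a count in any library, scaled to a geometric mean of 1. Ratios used a pseudocount of 0.5, which understates changes of low genes. Their 95% intervals (z = 1.96) came from Poisson error, and reads carried no molecular identifiers, so the intervals cover counting error only. The deposited per-gene length was used. The calling step was run on simulated data with Poisson error only and with steps larger than 1.35-fold. That run does not show how reliable the calls near the threshold are in these libraries. Genes named were those in the study's table, the 12 with the largest smaller step, the 5 with the highest mean, the 3 nearest the threshold on each side and the 3 leading reverse genes. The genes and lists were chosen with earlier results of these data known. Alternatives were other scalings (TMM from edgeR 4.0.16 on rounded counts, in R 4.3.3), posterior means, TPM, thresholds and pseudocounts. Python 3.11.15, numpy 2.4.6 and pandas 2.3.3 were used.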

Additional observations from a re-analysis of the deposited data

Results flagged for a closer look

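SINVm1_gene_10898 had an expected count of 0 in M_BB, and the deposited posterior mean, which the comparisons of the libraries do not use, gave 36.63 reads there with a posterior standard deviation of 30.8. In P_Bb the posterior mean was 78.7 reads against an expected count of 93.0, and in P_BB it was 55.7 against 41.8. The value of 0 in M_BB therefore belongs to 1 of the 2 estimates.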

How the results depend on the processing

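Counts are given in the order of genes graded down, graded the reverse way and in the other 4 orders, which were 29, 27 and 49 in the main setting. Total counts gave 15 and 63. A pseudocount of 5 gave 18, 11 and 26. Steps of 2-fold gave 3, 0 and 0, steps of 1.5-fold gave 11, 7 and 13, and steps of 1.2-fold gave 148, 140 and 302. A minimum mean of 10 gave 64, 72 and 141, and one of 50 gave 4, 6 and 9. Requiring counting-error intervals on the side of the call gave 5, 2 and 6, and with the posterior standard deviation, added after seeing the data, 3, 2 and 5. The cause of the change with total counts was not tested, and the other settings were stricter or looser. A minimum mean of 10 or of 50 also put the reverse count above the graded-down count. Median of ratios, TMM, TPM, posterior means, no upper limit of the mean, leaving out genes of ambiguous reads and centring each class moved each count by less than 1.5 times. Of 308 recomputed ratios of single genes 306 stayed within counting error, 0 changed direction and 2 moved, both of SINVm1_gene_10898 on posterior means, to 0.91 and 0.53 on the log2 scale. A scaling shifts all genes nearly alike, and the intervals of these low counts are wide, so few ratios could have moved. The 306 therefore do not show that the genes stay graded, and with total counts 13 of the 29 did. No paired analysis was possible because each class had 1 library, and for the same reason no library could be left out. Depth limits most single steps, since the median gene had under 50 normalized counts.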
